A study of Mus musculus with 6 samples.

Results

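The 8 genes described here encode a brake on mTORC1 that energy and growth signals control, and the mTORC1 activator it acts on, Rheb. The brake genes are Tsc1, Tsc2 and Tbc1d7 (the TSC complex), Stk11 (LKB1), Prkaa1 and Prkaa2 (the catalytic subunits of AMPK) and Ddit4 (REDD1). The 8 genes were chosen by name, and all 8 of 8 were present among the 19060 genes of the deposited counts. Bulk RNA of the proximal mouse incisor was sequenced from 3 control and 3 mutant samples. Control mice were Fgfr1fl/fl, which the labels call wild type, so their floxed Fgfr1 alleles were intact. Mutant mice were Gli1CreER;Fgfr1fl/fl (Gli1-Cre;Fgfr1fl/fl in the labels), in which Cre is made under control of Gli1 and is active only in Gli1+ cells and their descendants. Both groups were induced with tamoxifen at 1 month of age and collected 1 week later, on a mixed background. The tissue holds mesenchyme, epithelium, vessels and nerve together, so a lower level can mean fewer cells of a type or less RNA per cell, and these cannot be told apart.

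RHEB is a small GTPase that switches on the kinase mTORC1 at the lysosome when it carries GTP. The TSC complex is the GTPase-activating protein for RHEB: TSC2 holds the catalytic domain, TSC1 stabilises it and TBC1D7 binds TSC1. When energy is low, LKB1 phosphorylates AMPK, and AMPK phosphorylates TSC2 and so restrains mTORC1, while REDD1 acts on the same complex under hypoxia, glucocorticoids and other stress. Growth factor receptors such as FGFR1 work against the brake, since AKT and ERK phosphorylate and inhibit TSC2. Most of this control is by phosphorylation, which RNA levels do not show.

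The comparison asked how the transcripts of this brake and of Rheb differed 1 week after Fgfr1 was deleted from Gli1+ cells. Rheb was the 1 member that passed the threshold of the study (more than 1.5-fold at an unadjusted p under 0.05), and it was 2.15-fold higher in mutant samples. The other 7 members did not pass it: Tsc2 was lower without passing, and in all 7 the values of the groups overlapped. At an adjusted p under 0.05, 0 of the 8 members were called by edgeR's quasi-likelihood test, and 1 of 8 had an unadjusted p under 0.05. By DESeq2, 1 of 8 was called, Rheb, beside 1609 genes called in all. By edgeR, over all 15826 genes tested, 6.79% were called at the adjusted threshold and 19.8% at the threshold of the study. The 1 of 8 members past the study's threshold is no more than that background share. The groups did not overlap in 1 of 8 members, against 30.4% of all genes.

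Promoter sequence is shown for 3 members: Rheb and Tbc1d7, for an element that no other member holds, and Ddit4, as the member known as a hypoxia target. All 8 members matched 1 entry each of the RefSeq promoter sequences on GRCm38.p6, which run from 250 bases before to 50 bases after the annotated start. CACGTG, a palindrome read the same on both strands and the core of the E-box bound by MYC, USF and TFEB, was found in Rheb and in Tbc1d7 and in none of the other 6 members, against 7.15% of 32851 promoters. The 30 bases around it, written 5′ to 3′ on the gene's strand with CACGTG in capitals, lay at chr5:24842440-24842469 for Rheb and at chr13:43171537-43171566 for Tbc1d7, both on the minus strand.
Rheb: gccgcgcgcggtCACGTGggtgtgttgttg
Tbc1d7: ccggttaacatcCACGTGtgggtgggactc
In Rheb the element began 96 bases before the RefSeq start, and in Tbc1d7 53 bases before it. The GENCODE start of Rheb is at 24842624, so its element lies inside the GENCODE gene and is upstream of the RefSeq start only. The GENCODE start of Tbc1d7 is at 43171501, so its element is upstream of both starts. ACGTG or GCGTG, the core letters of the hypoxia response element, was searched on both strands and overlaps CACGTG. It was found in 43.8% of all promoters and in 7 of the 8 members, the exception being Prkaa1. In Ddit4, a textbook hypoxia target, it occurred 2 times, shown in capitals in the 186 bases upstream of both the RefSeq and the GENCODE start (chr10:59951835-59952020, minus strand).
Ddit4: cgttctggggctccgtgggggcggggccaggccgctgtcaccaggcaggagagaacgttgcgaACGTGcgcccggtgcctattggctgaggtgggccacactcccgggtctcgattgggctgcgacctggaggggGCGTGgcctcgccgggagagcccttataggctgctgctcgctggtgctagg
TGATGNAA, a core of ATF4 composite sites searched on both strands, was in none of the 8 windows, against 3.97% of all promoters. The GC-box core GGGCGG, searched on both strands, was found in 5 of the 8 members and in 35.7% of all promoters, with 5 matches in Prkaa1. These are matches of letters, not bound sites. Every member's window held more CpG dinucleotides than the median promoter, from 20 in Tsc1 to 52 in Prkaa1 against 7. The shares over all promoters are therefore not those of promoters of like composition.

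Library facts that touch these values were as follows. Control samples held 31060222 to 32712448 counts and mutant samples 5276557 to 11819576, so every mutant library was shallower and 1 count in mutant sample 1 is a larger step in CPM. Genes at 0 counts made up 3.83 to 3.96% in control samples and 17.1 to 30.3% in mutant samples. Log2 CPM correlated at 0.944 to 0.973 between control samples and at 0.725 to 0.791 between mutant samples. Between the groups it correlated at 0.689 to 0.818, a range that holds that of the mutants. Values are given as CPM after upper-quartile scaling, a count scaled to a common library size. A count of 0 allows up to 0.0874 CPM in control sample 1 and up to 0.655 CPM in mutant sample 1. Fgfr1 itself had 529, 924 and 434 CPM in controls and 148, 318 and 262 CPM in mutants, and the groups did not overlap. Short transcripts stood higher in mutant libraries: the median log2 fold change was 1.37 for 1534 genes with transcripts under 1000 bases and -0.23 for 2064 genes of 6000 bases or more. The median over all genes was -0.04. Results are therefore also given with length and GC content corrected for, using the longest annotated transcript and, chosen after seeing the data, with the longest coding transcript. Incisor markers were present: ameloblast Amelx was at 50951 to 66940 CPM in controls and 15184 to 42259 in mutants, and odontoblast Dspp at 1590 to 7742 and 2181 to 3498.

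Rheb lies on chromosome 5 of GRCm38 from 24802823 to 24842624, minus strand. It had 71.9, 36.8 and 57.4 CPM in controls and 164, 93.0 and 99.7 CPM in mutants. All 3 mutant samples lay above all 3 controls. The mean was 55.4 ± 17.6 CPM in controls and 119 ± 39.3 CPM in mutants (SD, n = 3). The log2 fold change was 1.10 (standard error 0.33, 95% interval 0.34 to 1.87), with an adjusted p of 0.100 (0.0105 before adjustment) by edgeR's quasi-likelihood test. The adjusted p ran from 0.0339 with DESeq2 to 0.310 without control sample 3, and the change stayed above 0 and past the study's threshold in every alternative run.

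The size of the Rheb difference depended on which transcript is counted. The longest annotated Rheb transcript has 4046 bases and is not coding, while the longest coding one has 1784 bases. After the correction by the longest transcript the log2 fold change was 0.96 (adjusted p 0.143, edgeR), and 15.1% of all genes passed the study's threshold. After the correction by the longest coding transcript it was 0.62, with a 95% interval of 0.11 to 1.12 and an adjusted p of 0.208 by edgeR, and 14.6% of genes passed. The corrected values were 70.9, 54.5 and 66.7 CPM in controls and 124, 86.0 and 84.9 CPM in mutants. The groups still did not overlap, as for 27.0% of all genes, but the fold was 1.53, close to the 1.5-fold limit. Whether transcript length accounts for the rest was not tested.

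**Figure D1:**
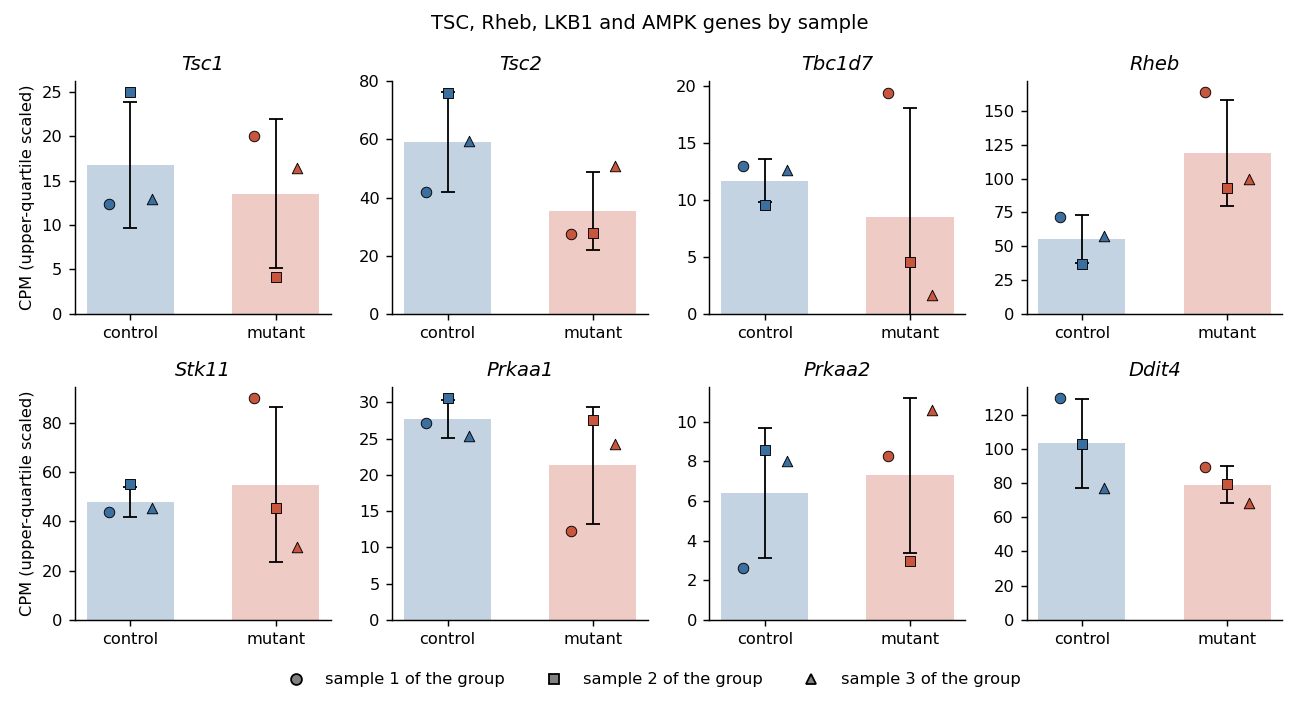
Upper-quartile scaled CPM of the 8 genes in each of 3 control (blue) and 3 mutant (red) samples. Bars are group means, error bars SD over the 3 samples, and symbols mark the sample number within a group. In the Rheb panel all mutant samples lie above all controls, and in the other panels the groups overlap.

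Tsc2, the catalytic subunit of the complex, lies on chromosome 17 from 24595816 to 24632630. It had 41.8, 76.1 and 59.6 CPM in controls and 27.3, 27.9 and 50.7 CPM in mutants. Mutant samples 1 and 2 lay below all controls, but mutant sample 3 lay between control samples 1 and 3, so the groups overlapped. On the log2 scale the change was -0.74 (standard error 0.35, 95% interval -1.55 to 0.06), with an adjusted p of 0.289 by edgeR. Tsc2 passed the study's threshold in 5 of 17 alternatives, among them the fit without control sample 1 (-0.94) and that without mutant sample 3 (-1.11). After the correction by the longest transcript it was -0.19, with an interval of -0.82 to 0.43. Tsc2 shares 693 exonic bases with Pkd1 on the opposite strand, and whether counting used strand is not stated, so reads of the pair cannot be told apart there.

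Tsc1, on chromosome 2 from 28641228 to 28691167, encodes hamartin, the scaffold that keeps TSC2 stable. Its values were 12.3, 25.0 and 12.9 CPM in controls and 20.1, 4.10 and 16.4 CPM in mutants. The highest value was control sample 2 and the lowest mutant sample 2, while mutant samples 1 and 3 lay above control samples 1 and 3. Mutant sample 2 rests on 48 counts, whose exact Poisson 95% interval is 3.02 to 5.43 CPM (counting error only). The mutant minus control log2 value was -0.32 (interval -1.79 to 1.16, adjusted p 0.853, edgeR), and it turned to 0.20 after the length and GC correction.

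Tbc1d7, the third subunit, lies on chromosome 13 from 43151740 to 43171501. It had 13.0, 9.51 and 12.6 CPM in controls and 19.4, 4.53 and 1.61 CPM in mutants. The controls lay within a 1.36-fold range, while the mutants spanned a 12-fold range, with 1 sample above all controls and the other 2 below. Mutant sample 3 rests on 16 counts (exact Poisson 95% interval 0.922 to 2.62 CPM), so its low level exceeds counting error against mutant sample 1 (15.6 to 23.9 CPM). Its log2 fold change was -0.48 (standard error 0.87, adjusted p 0.836, edgeR). After the correction by the longest transcript it was -0.70 (adjusted p 0.784, edgeR). By the longest coding transcript it was -1.20 (adjusted p 0.582, edgeR). Without mutant sample 1 the uncorrected log2 fold change was -1.94 (adjusted p 0.0897, edgeR), past the study's threshold, and without mutant sample 3 it was 0.01.

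Within a sample, the ratio of Rheb to a TSC subunit is not affected by library scaling. Rheb over Tsc2 was 1.72, 0.483 and 0.963 in controls and 6.02, 3.33 and 1.97 in mutants. Rheb over Tsc1 was 5.83, 1.47 and 4.44 in controls and 8.17, 22.7 and 6.07 in mutants. Rheb over Tbc1d7 was 5.54, 3.87 and 4.56 in controls and 8.45, 20.5 and 61.8 in mutants. All 3 ratios were higher in every mutant than in every control sample. After the correction by the longest coding transcript the ratio to Tbc1d7 still did not overlap, whereas those to Tsc1 and Tsc2 did: Rheb over Tsc2 was then 1.58, 1.11 and 1.32 in controls and 3.18, 2.87 and 1.49 in mutants. The ratios are descriptions, since their Rheb values are those given above.

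**Figure D2:**
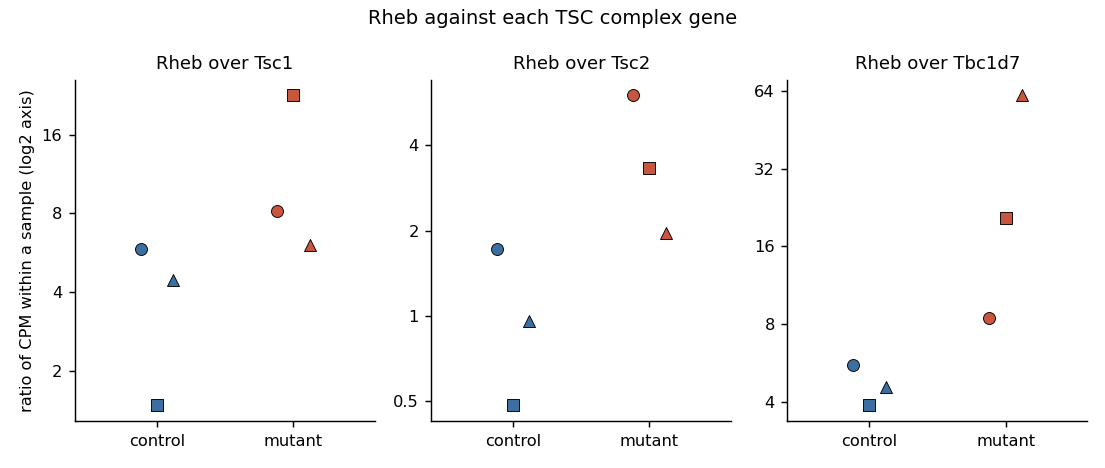
Ratio of Rheb CPM to Tsc1, Tsc2 and Tbc1d7 CPM within each sample, on a log2 axis, for 3 control (blue) and 3 mutant (red) samples without a length correction. Circles, squares and triangles are samples 1, 2 and 3 of a group, and in each panel the lowest mutant sample lies above the highest control.

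Stk11 encodes LKB1, the kinase that activates AMPK and its relatives, and lies on chromosome 10 from 80115803 to 80130682. It had 43.8, 55.0 and 45.2 CPM in controls and 89.9, 45.3 and 29.4 CPM in mutants. Mutant sample 1 lay above and mutant sample 3 below all controls. Between the groups the log2 fold change was 0.19 (interval -0.73 to 1.10, adjusted p 0.859, edgeR). It was -0.38 without mutant sample 1 and 0.85 after the length and GC correction (interval -0.08 to 1.79). Stk11 shares 232 exonic bases with Cbarp on the opposite strand.

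Prkaa1, the α1 catalytic subunit of AMPK, lies on chromosome 15 from 5143861 to 5181899. It had 27.1, 30.6 and 25.4 CPM in controls and 12.2, 27.6 and 24.2 CPM in mutants, so mutant sample 1 was low and the other 2 lay near the controls. The log2 fold change was -0.37 (interval -1.24 to 0.50, adjusted p 0.675, edgeR). After the length and GC correction the values were 31.6, 37.4 and 30.4 CPM in controls and 10.6, 23.9 and 19.1 CPM in mutants, and the groups no longer overlapped, as for 27.4% of all genes. The corrected log2 fold change was -0.88 (interval -1.72 to -0.05, unadjusted p 0.0404, adjusted p 0.280, edgeR), which passed the study's threshold. By the longest coding transcript it was -0.93 (adjusted p 0.239, edgeR).

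Prkaa2, the α2 subunit, is the form that predominates in skeletal muscle and lies on chromosome 4 from 105029874 to 105109890. It was the member with the lowest level, at 2.62, 8.57 and 8.0 CPM in controls and 8.29, 2.99 and 10.6 CPM in mutants. The groups overlapped throughout, and mutant samples 1 and 2 rest on 38 and 35 counts. Its log2 fold change was 0.18 with an interval of -1.67 to 2.04 (adjusted p 0.937, edgeR). The 14 skeletal muscle markers summed to 13.1, 3272 and 36.1 CPM in controls and 7853, 197 and 1248 CPM in mutants. Of these markers 0 of 14 passed the study's threshold, and 1 was at 0 in control sample 1 and 1 in mutant sample 3. The samples with the lowest Prkaa2, control sample 1 and mutant sample 2, had muscle sums of 13.1 and 197 CPM, and mutant samples 1 and 3 and control sample 2, all above 8 CPM of Prkaa2, had sums above 1000 CPM, whereas control sample 3 had 8.0 CPM of Prkaa2 at a sum of 36.1 CPM. The part of muscle RNA in the Prkaa2 values was not tested. Per kilobase of exonic length, Prkaa1 gave 94.7, 85.9 and 84.4% of the catalytic AMPK level in controls and 71.6, 94.0 and 79.6% in mutants, so it was the larger part in every sample.

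Ddit4 encodes REDD1, the stress-induced protein that promotes TSC activity, and lies on chromosome 10 from 59949669 to 59951834. It had 130, 103 and 77.4 CPM in controls and 89.5, 79.4 and 68.1 CPM in mutants. Mutant sample 3 was the lowest of all, and mutant samples 1 and 2 lay between control samples 2 and 3. The log2 fold change was -0.39 (standard error 0.26, interval -0.98 to 0.20, adjusted p 0.474, edgeR) and -0.37 after the length and GC correction. The interval excludes a rise of 1.5-fold but not a fall of that size.

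**Figure D3:**
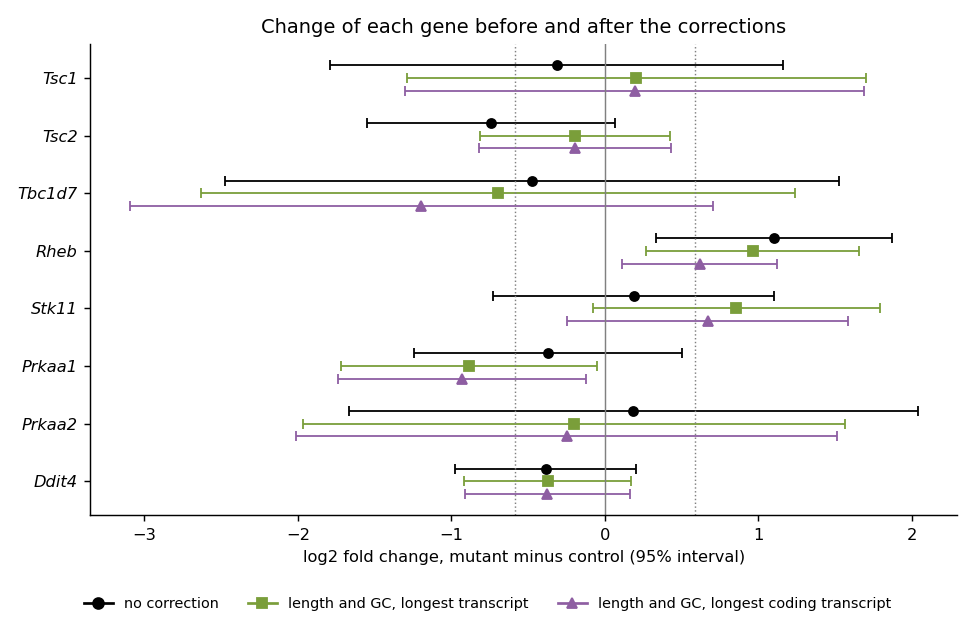
Log2 fold change (mutant minus control) of the 8 genes with 95% intervals, without a correction (black circles) and after correction for length and GC content by the longest transcript (green squares) or the longest coding transcript (purple triangles). Dotted lines mark a 1.5-fold change. Rheb keeps an interval above 0 in all 3 fits and falls from 1.10 to 0.62, while Prkaa1 has an interval below 0 only in the corrected fits.

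Levels can be compared between genes only per length. On CPM per kilobase of exonic length, the control order was Ddit4 (58.8 ± 14.9), Stk11 (10.5 ± 1.33), Rheb (7.17 ± 2.28), Tsc2 (6.15 ± 1.78), Prkaa1 (5.95 ± 0.567), Tbc1d7 (2.89 ± 0.469), Tsc1 (1.42 ± 0.603) and Prkaa2 (0.803 ± 0.412; SD, n = 3). The sample ranges of Rheb and Tsc2, of Tsc2 and Prkaa1, and of Tsc1 and Prkaa2 overlapped, and the other neighbours were apart. In mutants Ddit4 stayed first (45.0 ± 6.09) and Prkaa2 last (0.915 ± 0.489), and Rheb was second (15.4 ± 5.09) ahead of Stk11 (12 ± 6.85), with overlapping ranges. With the longest coding transcript as the length, Rheb was second in controls (31.0 ± 9.89) and first in mutants (66.7 ± 22), where its samples lay above those of Ddit4. The place of Rheb thus depends on the gene model.

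Partners of the same steps were read from the same fit. Prkab1, the β1 subunit that joins the AMPK subunits, had 27.6, 27.0 and 23.9 CPM in controls and 7.86, 7.43 and 15.1 CPM in mutants. All mutant samples were below all controls, and the log2 fold change was -1.36 (standard error 0.43, adjusted p 0.111, edgeR) and -1.32 after the length and GC correction, past the study's threshold both times and in all 17 alternatives. Prkab2, the β2 subunit, lay the other way, at 8.45, 9.59 and 8.73 CPM in controls and 20.1, 10.7 and 12.8 CPM in mutants. Its groups did not overlap either, but its log2 fold change of 0.70 did not pass (adjusted p 0.515, edgeR).

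Of the γ subunits, which sense AMP, Prkag2 had 55.1, 52.8 and 59.1 CPM in controls and 78.1, 67.5 and 73.9 CPM in mutants, without overlap (log2 fold change 0.39, adjusted p 0.342, edgeR), and Prkag1 had a log2 fold change of -0.22. After the length and GC correction Prkag2 was at 0.56 (adjusted p 0.140, edgeR) and did not pass, and Prkag1 was at -0.46, without overlap. By the longest coding transcript Prkag2 was at 0.59 (adjusted p 0.123, edgeR) and passed the study's threshold. Cab39 and Strada encode MO25 and STRAD, which hold LKB1 in its active form. Cab39 had a log2 fold change of -0.12, and Strada had 14.8, 13.0 and 13.9 CPM in controls and 0.437, 14.2 and 11.6 CPM in mutants, the first mutant value being below what a count of 0 allows in that library. Rhebl1, the paralog of Rheb, was at 1.21 to 2.91 CPM in controls and 10.04, 0.256 and 0 CPM in mutants. Mutant samples 2 and 3 were at or below what a count of 0 allows, while mutant sample 1 lay above all controls, so no fold is given. Ddit4l, the paralog of Ddit4, had 15.5, 11.7 and 15.3 CPM in controls and 46.5, 20.3 and 22.2 CPM in mutants. It passed the study's threshold in the higher direction (log2 fold change 1.06, adjusted p 0.209, edgeR), and in 8 of 17 alternatives, unlike Ddit4, although no test compared the paralogs with each other.

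The wider lists were chosen with earlier results of these data known, and are given as counts at the study's threshold, which 10.9% of all genes passed in the higher and 8.92% in the lower direction. With length and GC corrected for, 1012 of 15826 genes passed in the higher and 1375 in the lower direction. With the longest coding transcript these were 935 and 1378. Among AMPK subunits and upstream partners, 0 of 11 tested were higher and 2 lower, Prkab1 and Map3k7 (TAK1, log2 fold change -0.65), and the median log2 fold change was -0.22. After the length and GC correction the median was -0.62 and 3 were lower, the third being Cab39l, a MO25 paralog named to complete the count. By the longest coding transcript the median was -0.45, with 3 lower and 1 higher, Prkag2. Among 11 AMPK-related kinases activated by LKB1, 0 were higher and 2 lower, Sik3 (-1.13) and Mark1, which had 8.16, 12 and 6.62 CPM in controls and 0, 0.171 and 2.42 CPM in mutants. The log2 fold change of Mark1 is not given, because 2 mutant libraries were at or below the level that a count of 0 allows.

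Kinases that act on the TSC complex, with their regulators, had 6 lower genes of the 15 reported here, with a median log2 fold change of -0.65. Mapk3 encodes ERK1, which phosphorylates TSC2 downstream of FGF receptors. It had 130, 109 and 99.2 CPM in controls and 51.5, 55.2 and 58.3 CPM in mutants, without overlap. Its log2 fold change of -1.03 passed the adjusted threshold (standard error 0.21, adjusted p 0.0458, edgeR) and was -1.01 after the length and GC correction. Mapk3 passed the study's threshold in all 17 alternatives and the adjusted one in 3, with adjusted p-values of 0.000616 to 0.190 (edgeR and DESeq2). Gsk3b, which phosphorylates TSC2 after AMPK, had a log2 fold change of -1.01 (adjusted p 0.0775, edgeR). The other 4 lower genes were Gsk3a, Akt1, Akt2 and Rps6ka1, named to complete the count, and after the length and GC correction 3 of the 15 were lower (Mapk3, Gsk3a and Gsk3b), with a median of -0.39.

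Of 6 paralogs and RHEB partners, 1 was higher (Ddit4l) and 0 lower. Of 15 AMPK substrates and effectors, 0 were higher and 2 lower: Cpt1a, the carnitine shuttle of fatty acid oxidation, at a log2 fold change of -1.34, and Txnip, an inhibitor of glucose uptake, at -0.75. Signals known to induce Ddit4 were read through other genes they induce. Among 12 hypoxia targets 0 were higher and 1 was lower, Ndrg1 (327, 294 and 340 CPM in controls, 86.0, 122 and 151 in mutants, log2 fold change -1.42, adjusted p 0.0391, edgeR, and 6.83e-06 to 0.190 over the alternatives). Among 10 glucocorticoid targets 0 were higher and 2 lower, Klf9 (-1.0) and Fkbp5 (-1.04). Among 12 ATF4 targets 0 were higher and 3 lower: Slc7a11, the cystine transporter (-2.01), Phgdh, which starts serine synthesis (-0.88), and Asns, named to complete the count (-1.41). Among 11 p53 targets 0 were higher and 1 lower, the cell cycle inhibitor Cdkn1a (-1.20), and the list's median was 0.42. Several of these calls rested on single samples or settings: of the 17 alternatives, Sik3 passed in 14, Cpt1a in 13, Txnip and Klf9 in 12, Map3k7 in 11 and Fkbp5 in 6, while Slc7a11, Cdkn1a, Gsk3b and Ndrg1 passed in all. Without any 1 of the 6 samples, 0 or 1 glucocorticoid targets were lower. Across these 9 lists the median lay between -0.65 and 0.42, beside -0.04 over all genes. After the length and GC correction the median over all genes was -0.10, and the medians of the AMPK-related kinases (0.17) and of the AMPK substrates and effectors (0.28) lay above 0.

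**Figure D4:**
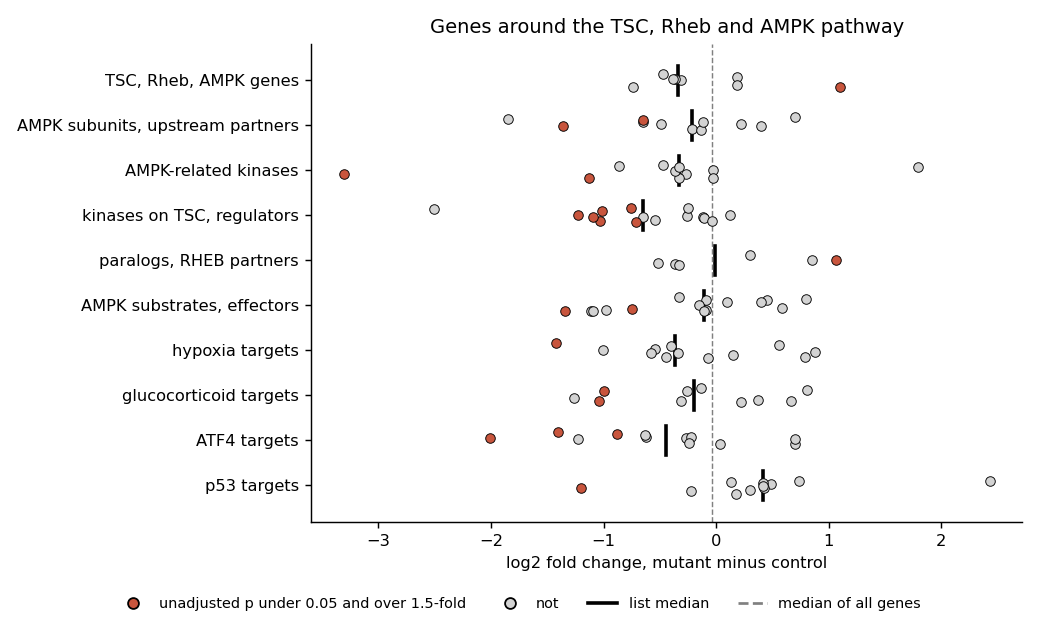
Log2 fold change (mutant minus control) of each tested gene in the list of 8 members and in 9 lists around them. The leftmost red point is Mark1, whose fitted value rests on mutant counts near 0. Red points passed an unadjusted p of 0.05 and 1.5-fold, black bars are list medians and the dashed line is the median of all genes (-0.04). The kinases that act on the TSC complex and their regulators have 6 red points below 0.

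Markers of other cell types differed between samples as follows. Epithelial markers (10 genes) summed to 86307 to 122086 CPM in controls and 33999 to 73153 in mutants, with 1 higher at the study's threshold (Odam) and 0 lower. After the length and GC correction 0 were higher and 5 lower, namely Amelx, Ambn, Enam, Mmp20 and Krt14, named to complete the count, and Odam was at a log2 fold change of 0.37, or 1.76 without the correction. Over all 15826 genes tested, 1012 were higher and 1375 lower in that corrected fit. Mesenchymal and odontoblast markers (10 genes) summed to 25567 to 68617 and 23283 to 29287 CPM, with 0 higher and 1 lower (Col1a2), but 1 higher (Nes, named to complete the count) and 0 lower after the correction, where Col1a2 was at -0.49. Erythroid markers summed to 380 to 834 and 926 to 2560 CPM, with 2 of 6 tested higher (Hbb-bs, Hba-a2) and 1 lower (Hba-a1). After the correction 0 were higher and 1 lower, with Hbb-bs at 0.46 and Hba-a2 at -0.02. Macrophage, endothelial, Schwann cell and neutrophil markers summed to 118 to 369, 168 to 259, 122 to 151 and 5.68 to 78.0 CPM in controls and to 258 to 423, 131 to 156, 103 to 182 and 25.8 to 77.3 CPM in mutants, and 1 of their genes passed, S100a8, higher (2.25). After the correction S100a8 was at -0.26 and did not pass, and 1 Schwann cell marker was higher (Mbp) and 1 lower (Pmp22). Gli1, which drives the Cre, was at 22.6, 23.8 and 33.4 CPM in controls and 10.9, 24.6 and 22.8 in mutants. Their part in the differences of the 8 genes was not tested.

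The genes whose pattern was most like each member's were found among 9707 genes with a mean of at least 10 CPM, by the root mean square difference of centred log2 values over the 6 samples. For Rheb they were Srp19 (0.062), Nsmce1 (0.0898) and Txndc9 (0.0941), where the median gene differed by 0.840. For Tsc2 they were Ambra1 (0.0907), Ascc2 (0.107) and Myh11 (0.112), and for Tsc1 Jade2 (0.190), Ercc5 (0.234) and Phlpp1 (0.254). For Tbc1d7 they were Smg8, Mad2l1bp and Rfc5, between 0.190 and 0.202. For Stk11 they were Kdm1a, Tyw1 and Erbb2, between 0.0791 and 0.105. For Prkaa1 they were Tada3, Mau2 and Ctcf, between 0.0713 and 0.0980, and for Prkaa2 Patj, Shroom3 and Myo9a, between 0.247 and 0.287. For Ddit4 they were Rcn3, Shisa4 and Serpinf1, between 0.0877 and 0.106. The members with few counts, Tsc1, Tbc1d7 and Prkaa2, had the least close matches.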

How the data were processed

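Single reads were aligned to mm10 and quantified in Partek Flow by the authors, and TopHat2 2.0.8 is named in the submitters' processing notes. The authors deposited estimated counts per gene, not normalized, with samples in rows. A second table holds their own comparison (p-values, adjusted values, ratios, fold changes and group means) and was not used. Estimated counts were rounded, and genes were tested with edgeR 4.0.16 in R 4.3.3: upper-quartile scaling, filterByExpr (minimum count 10, total 15), genotype as the only term, a two-sided quasi-likelihood test and Benjamini-Hochberg adjustment over 15826 genes. DESeq2 1.42.0 was an alternative. Annotation came from GENCODE M21 (GRCm38), with 18637 direct symbol matches, 219 by synonym and 204 unmatched. The length and GC correction fitted each sample's deviation with natural splines (5 degrees of freedom) on coding genes averaging 50 counts or more. It was tested only on simulated counts with a length trend, without a GC trend and without changed genes. The pseudocount for like patterns was 0.5.

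The genes named were the 8 members, Fgfr1, 8 direct partners, up to 2 higher and 2 lower genes of each list by smallest p at the study's threshold, and the 3 closest patterns per member. Of the genes in the lists, 1 is not reported here and is left out of its list's counts. Members and lists were chosen with earlier results of these data known. Nothing states that samples came from separate animals, so p-values measure the spread between these samples.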

Additional observations from a re-analysis of the deposited data

How the results depend on the processing

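Rheb was higher in mutants and past the study's threshold in all 17 alternatives, at log2 fold changes of 0.62 to 1.33 (0.78 to 1.33 without 1 sample). The members past that threshold numbered 1, and 2 with TMM scaling, the replicate block, the length and GC correction, that correction with the replicate block, and the correction by the longest coding transcript, 3 with total counts only, and 1 to 2 without 1 sample. The genes called at an adjusted p under 0.05 numbered 1074, and 229 without the filter, 370 at a mean of at least 50 counts, 54 among protein-coding genes only, 508 with the replicate block, 145 with the length and GC correction, 136 with that and the replicate block, 136 by the longest coding transcript, 374 with control counts thinned, and 76 to 606 without 1 sample. DESeq2 called 1609 genes at that adjusted threshold. Genes past the study's threshold numbered 3137, and 4733 without the filter, 1777 with the replicate block and the correction, and 2006 to 4732 without 1 sample.

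Tsc1 turned to 0.20 with the length and GC correction and 0.19 by the coding transcript, and ran from -0.73 to 0.11 without 1 sample. Prkaa2 turned to -0.20, to -0.27 with the replicate block added, to -0.25 by the coding transcript and to -0.13 with total counts, and ran from -0.21 to 0.55 without 1 sample. Stk11 turned to -0.10 with total counts and ran from -0.38 to 0.48, and Tbc1d7 from -1.94 to 0.0102, without 1 sample. Cab39 turned to 0.0235 without mutant sample 1. Ddit4 passed the threshold with total counts (-0.65), which moved the median of all genes to -0.30, where TMM gave -0.13. Leaving out 1 sample moved the counts of lower genes to 1 to 3 of AMPK partners, 0 to 3 of AMPK-related kinases, 4 to 7 of kinases on TSC and their regulators, 0 to 2 of AMPK effectors, 1 to 2 of hypoxia targets, 0 to 1 of glucocorticoid targets and 1 to 5 of ATF4 targets. Counts of higher genes then ran from 0 to 1 for AMPK-related kinases, AMPK effectors, glucocorticoid targets and ATF4 targets, and from 0 to 2 for p53 targets. With all samples, 1 p53 target was higher with DESeq2, with protein-coding genes only and with the replicate block. The replicate block also gave 1 higher hypoxia target. The cause was not tested.

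Equal replicate numbers did not mark a shared litter or day in the labels. Same-numbered samples correlated at 0.0472, 0.00937 and 0.0548 in their deviations, all small values. Each matched its own number best, but the deviations were centred within each group and some sample is always the best match. This cannot establish a pairing. The paper's methods mention pairs of samples but do not say what was paired. With the replicate block, for which the labels give no ground, Rheb had an adjusted p of 0.0464 by edgeR. Tsc1, Tbc1d7 and Prkaa2 had 163 counts or fewer in every mutant sample. For Tbc1d7 the exact Poisson counting intervals of all mutant samples lay apart. For Tsc1 and Prkaa2 only the interval of mutant sample 2 lay apart, and those of mutant samples 1 and 3 overlapped.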
